A study of Mus musculus with 54 samples.

Results

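The ovaries described here came from second-generation (F2) mice whose mothers had been given dose 1 of a drug mixture and whose fathers were controls, and they were compared with ovaries of F2 mice from 2 control parents. The members were the 3 ovary libraries of the first group and the 3 of the second, 6 of the 54 libraries of the series, with every gene of the ovary count table. The mixture held ibuprofen (IBU), its metabolite 2-hydroxyibuprofen (2hIBU), diclofenac (DCF) and the contraceptive oestrogen 17α-ethinyl-estradiol (EE2), and it was given in drinking water. Dose 1 was 11.3 ng/L IBU, 90 ng/L 2hIBU, 22.5 ng/L DCF and 2.25 ng/L EE2, and control water held 0.001% ethanol. Exposure of the first generation (F1) began in the womb at 8.5 days post-coitum, and females were killed at 8 weeks and males at 10 weeks. The labels list the F2 animals as untreated, while the treatment protocol speaks of offspring that drank the water for life without naming a generation. The F2 groups are therefore described by the exposure of their parents, and exposure of the F2 animals themselves cannot be told apart from it. The labels give no strain, and they do not tell whether libraries A, B and C of a group are separate animals or litters, so each p reflects the variation among these libraries, which may be technical. Dose 2, used below for reference, was 113 ng/L IBU, 225 ng/L 2hIBU, 112 ng/L DCF and 45 ng/L EE2.

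In the ovary, granulosa cells surround each oocyte and, under follicle-stimulating hormone, turn androgens from theca cells into oestrogens. The surge of luteinising hormone sets off ovulation, cumulus expansion and prostaglandin synthesis, after which the follicle becomes a corpus luteum that uses cholesterol to make progesterone. Ibuprofen and diclofenac block the cyclooxygenases Ptgs1 and Ptgs2, which make prostaglandin precursors, and EE2 activates oestrogen receptors, which makes the prostaglandin, oestrogen and steroid genes the ones nearest to the exposure.

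Each of the 6 libraries held between 40.1 and 55.3 M counts (M, 1e6) assigned to genes. The X-inactivation transcript Xist had at least 34194 counts in each, and the Y-linked gene Ddx3y had 0. Ovarian markers were high in all 6: the granulosa transcription factor Foxl2 lay between 219 and 304 CPM (gene counts scaled to a library total of 1e6, adjusted by the trimmed mean of M values, TMM), the granulosa hormone Amh between 222 and 449 CPM, the oocyte growth factor Gdf9 between 73.7 and 108.5 CPM and the egg coat protein Zp3 between 46.8 and 74.3 CPM. The oviduct glycoprotein Ovgp1 lay between 3.72 and 5.18 CPM, so the tissue matched its label. Replicates of a group differed far beyond counting noise, with a chi-square of at least 55.7 per gene for each pair.

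No gene passed the test in ovaries from dose 1 mothers. Of 17454 genes tested by edgeR's quasi-likelihood test on all 18 F2 ovary libraries, 0 had a Benjamini-Hochberg adjusted p under 0.05 (0%), and the smallest adjusted p was 0.282. At an unadjusted p under 0.05, 1606 genes differed, against 873 that this threshold admits when no gene differs. Of these, 873 were higher (5%) and 733 were lower (4.2%) in ovaries from dose 1 mothers. The groups lay at least 2-fold apart for 817 genes. For 294 of those, the 3 libraries of one group did not overlap the 3 of the other. Such a lack of overlap was common: over all 17454 genes it held for 1239 higher and 1212 lower ones. The median log2 fold change over all genes was -0.005, with 8556 genes above 0 and 8898 below. This split and the shares of 5% and 4.2% are the background for every gene list below. DESeq2 on the same counts called 126 genes (0.722%), of which 88 were higher and 38 lower, so the count of 0 depends on the tool. Leaving out the dose 1 library A also changed it: 68 genes then passed edgeR's test (0.385% of 17661), 66 higher and 2 lower, and 51 of these 68 were among the DESeq2 calls.

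The 13 genes described from those with the smallest p all had groups that did not overlap. They were chosen by p from these same libraries, so the lack of overlap follows largely from that choice. Of the 13, 10 were higher in ovaries from dose 1 mothers. A stretch of chromosome 4, described next, supplied 4 of them. The others that were higher were Ifnl3, a type III interferon, Apof, an apolipoprotein, Lims2, a focal adhesion adaptor, Kmt5c, a histone H4 lysine methyltransferase, Mycl, a MYC family transcription factor, and Rps19-ps3, a ribosomal protein pseudogene whose reads may belong to its parent gene. The 3 that were lower were Slc6a9, a glycine transporter, Enc1, an actin-binding protein, and Micalcl.

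**Figure D1:**
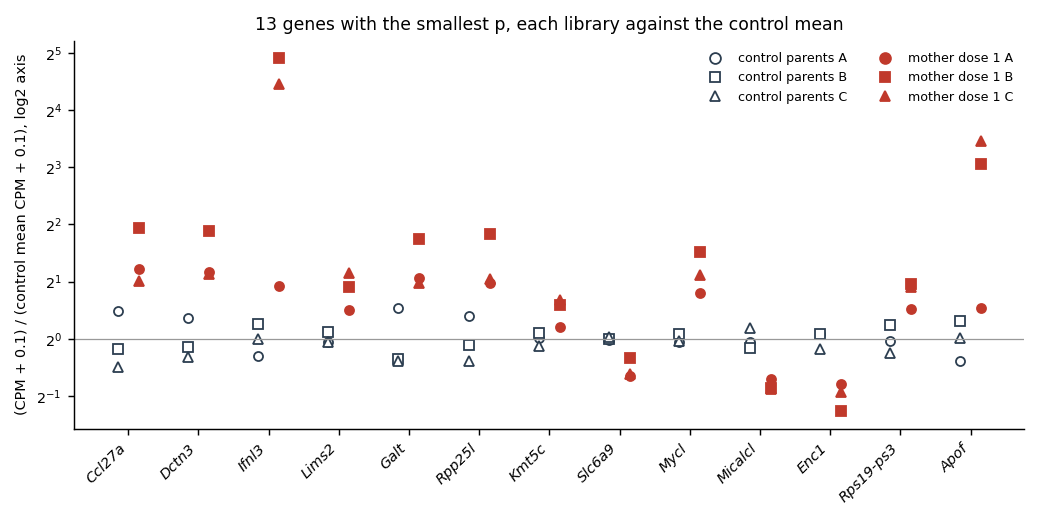
Level of the 13 genes described from those with the smallest p in each of the 6 ovary libraries, as the ratio of CPM + 0.1 to the control mean of the same gene + 0.1, on a log2 axis; open symbols are control parents, filled symbols are dose 1 mothers, and shapes are the libraries A, B and C. No gene's groups overlap, which follows largely from the choice by p. For Ifnl3 and Apof the dose 1 libraries B and C stand well above library A.

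Mycl was at 80.4, 133 and 100 CPM in ovaries from dose 1 mothers (libraries A, B and C) and at 44.6, 49.3 and 45.2 CPM in those from control parents. The 3 controls were nearly alike and all 3 dose 1 libraries were above them, with a log2 fold change of 1.17 ± 0.25 (SE) and an adjusted p of 0.302 by edgeR. Enc1 was at 108, 78.0 and 97.8 CPM against 200, 198 and 165 CPM, a log2 fold change of -0.99 ± 0.21. Kmt5c was at 88.0, 114 and 122 CPM against 76.7, 81.7 and 69.9 CPM, a log2 fold change of 0.51 ± 0.10. Slc6a9 was at 34.2, 42.3 and 35.1 CPM against 52.7, 53.4 and 55.0 CPM, so that its controls spread over less than 3 CPM. In each of these 4 genes, chosen for a small p, all dose 1 libraries lay on one side of all controls. Their adjusted p was 0.302 each by edgeR.

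Apof and Ifnl3 had a different shape. Apof was at 1.69, 10.2 and 13.4 CPM against 0.836, 1.41 and 1.132 CPM, so library A lay just above the controls while B and C were several-fold higher. Ifnl3 was at 0.132, 3.58 and 2.61 CPM against 0, 0.0464 and 0.0222 CPM, near the floor of detection in the controls and in library A. Lims2 was at 19.8, 26.4 and 31.1 CPM against 13.4, 15.2 and 13.4 CPM. In all 3 of these genes library A was the lowest of the dose 1 libraries.

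A set of 7 genes that lie close together on chromosome 4 had higher levels in ovaries from dose 1 mothers, and at 5 of the 7 every dose 1 library was above every control. In RefSeq gene order they are Rpp25l, Dctn3, Arid3c, Gm42274, Galt, Il11ra1 and Ccl27a. Dctn3 is a subunit of dynactin, the activator of the dynein motor. Galt is the galactose-1-phosphate uridylyltransferase of galactose breakdown, Rpp25l a relative of a ribonuclease P subunit, Il11ra1 a receptor for interleukin-11 and Ccl27a a chemokine. All 7 were tested, and their log2 fold changes ran from 0.95 to 1.45.

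Dctn3 was at 57.1, 93.5 and 55.8 CPM in ovaries from dose 1 mothers and at 32.9, 23.0 and 20.4 CPM in those from control parents. Library B was the highest and the groups did not overlap, with a log2 fold change of 1.44 ± 0.25 (SE) and an adjusted p of 0.282 by edgeR. Ccl27a was at 32.4, 53.2 and 28.0 CPM against 19.5, 12.2 and 9.77 CPM, a log2 fold change of 1.45 ± 0.25. It had the order of libraries seen for Dctn3, with B highest among the dose 1 libraries and C lowest among the controls. Galt was at 35.9, 57.8 and 33.9 CPM against 25.0, 13.4 and 13.1 CPM, and Rpp25l at 23.3, 42.2 and 24.4 CPM against 15.5, 10.9 and 8.94 CPM. Il11ra1 was at 42.5, 72.7 and 44.0 CPM against 38.7, 20.6 and 18.9 CPM, with an adjusted p of 0.307 by edgeR. Its control library A came close to the lowest dose 1 library.

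The difference began at Rpp25l. Its tested neighbour on the other side, Cntfr, a receptor for ciliary neurotrophic factor, was at 12.7, 10.3 and 12.4 CPM against 19.9, 13.3 and 16.6 CPM, a log2 fold change of -0.49 ± 0.30. The genes before it in order, from Ubap1 to Enho, had log2 fold changes between -0.23 and 0.15. Beyond Ccl27a the next genes in order had at most 3 counts in any of the 27 ovary libraries. The mouse reference holds near-identical copies of part of this stretch, and the copies Ccl27b and Il11ra2 had 0 counts in all 27 ovary libraries, so reads of Ccl27a and Il11ra1 cannot be assigned to 1 copy with certainty. Dctn3, Galt and Rpp25l were higher too, but copies of these genes were not looked up. The part of such copies in the difference was not tested.

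**Figure D2:**
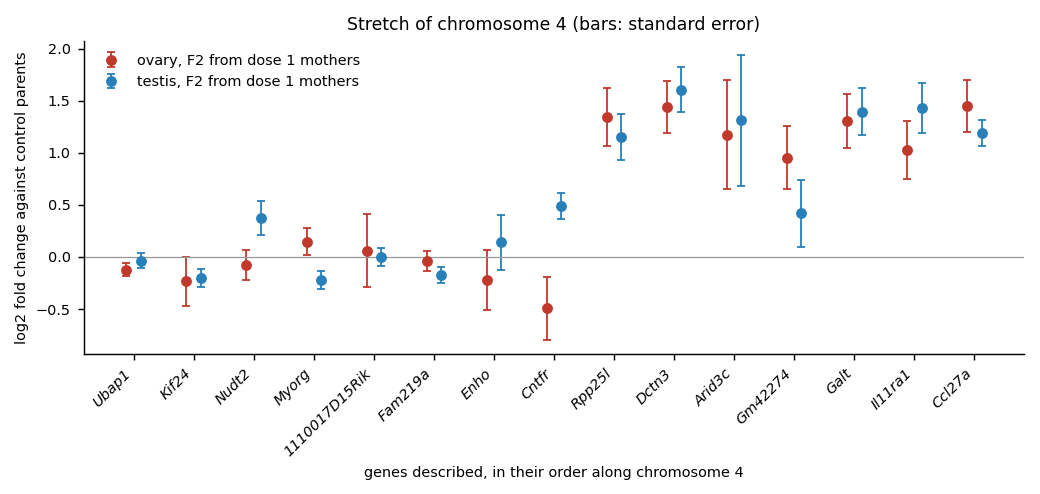
Log2 fold change with standard error, F2 from dose 1 mothers against F2 from control parents, for the genes described around Dctn3 in their order along chromosome 4, in ovary (red) and testis (blue). The 7 genes shown from Rpp25l to Ccl27a lie above 0 in both tissues, and those from Ubap1 to Enho lie between -0.23 and 0.15 in ovary.

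The same stretch was higher in the testes of F2 males from dose 1 mothers, in libraries that share no RNA with the ovaries. There 157 of 19241 genes passed (0.816%), and Rpp25l, Dctn3, Galt, Il11ra1 and Ccl27a were among those that rose. Testis Dctn3 was at 33.6, 52.5 and 31.3 CPM against 14.4, 10.7 and 13.6 CPM in testes from control parents, a log2 fold change of 1.61 ± 0.21 with an adjusted p of 0.00255 by edgeR. Testis Ccl27a was at 176, 217 and 166 CPM against 85.5, 77.6 and 82.7 CPM. In the testis as in the ovary, library B was the highest of the 3 dose 1 libraries for each of these 5 genes. The labels do not say whether the letters mark litters. In the other F2 crosses testis Dctn3 was also above the testis controls. It was at 38.4, 49.7 and 57.3 CPM from dose 1 fathers and at 26.9, 25.4 and 25.1 CPM from dose 2 mothers. From dose 2 fathers it was at 23.3, 23.7 and 26.85 CPM, and from parents both of dose 2 at 22.2, 23.65 and 35.8 CPM. All these crosses share the testis controls as their reference.

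Across all 27 ovary libraries, 2 of the 3 F2 controls were at the low end of this stretch. For each of the 5 genes, control libraries C and B were the lowest and the next lowest of the 27, and dose 1 library B was the highest. Control library A ranked 3 from the lowest for Dctn3, 4 for Rpp25l, 5 for Ccl27a, 8 for Galt and 12 for Il11ra1, so it lay among the libraries of other groups for most of them. Dctn3 was at 71.6, 58.7 and 38.7 CPM in F1 controls and at 69.2, 44.6 and 44.5 CPM in F1 females of dose 1, a log2 fold change of -0.09 ± 0.24 between them. In F2 ovaries from dose 1 fathers it was at 79.9, 78.8 and 55.5 CPM, from dose 2 mothers at 49.1, 33.4 and 40.9 CPM, from dose 2 fathers at 42.1, 53.2 and 52.0 CPM and from parents both of dose 2 at 39.3, 51.5 and 66.2 CPM. All 5 F2 crosses with an exposed parent were thus above the F2 controls, which they share as their reference. Levels of F1 and F2 libraries were scaled separately, so their ranking came from a joint scaling of all 27.

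Genes of this stretch were among those that passed in some alternatives. Ccl27a passed when the F1 libraries were added to the fit, with an adjusted p of 0.0471 by edgeR. Ccl27a and Galt passed without control library A, with an adjusted p of 0.0246. Without dose 1 library A, Dctn3 (adjusted p 0.0250), Ccl27a (0.0273), Rpp25l and Galt (0.0459 and 0.0469) passed edgeR's test. DESeq2 called 5 of the 7 genes. The promoter of Dctn3 is shown because Dctn3 had the largest log2 fold change of the 7 after Ccl27a, whose reads may come from a copy, as the 250 bases before its start in RefSeq (GRCm38.p6, minus strand, chr4:41723164-41723413), with the CCAAT box (CCAAT, both strands) in capitals.
Dctn3: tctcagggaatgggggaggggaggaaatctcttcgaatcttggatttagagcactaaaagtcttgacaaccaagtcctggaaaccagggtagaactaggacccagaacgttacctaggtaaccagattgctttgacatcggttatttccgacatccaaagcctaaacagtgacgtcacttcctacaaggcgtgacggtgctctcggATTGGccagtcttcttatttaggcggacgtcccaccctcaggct
That box occurred in 33.9% of 32851 RefSeq promoters of this length. The deposited counts were made on another build, mm39, so the coordinates belong to the printed sequence only.

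A further set of genes was high in dose 1 libraries B and C and lower in library A. Its members below were picked with their values in view, from genes higher at an unadjusted p under 0.05 both in F2 and in the F1 comparison given further on. They were Unc13d, a secretory granule priming factor, Elfn1, a synaptic adhesion protein, Tbc1d30, a Rab GTPase activator, Plcb2, a phospholipase C, H2-M5, a non-classical MHC class I gene, Chst1, a sulfotransferase, and Mfsd4a. Unc13d was at 37.3, 115 and 213 CPM in ovaries from dose 1 mothers and at 21.9, 33.1 and 21.5 CPM in those from control parents. Its groups did not overlap, but library A sat within 5 CPM of control B. Elfn1 was at 16.3, 51.5 and 104 CPM against 11.5, 15.1 and 17.8 CPM, with library A inside the control range. Tbc1d30 was at 8.88, 24.0 and 23.2 CPM against 6.01, 6.63 and 3.75 CPM, and H2-M5 at 2.79, 12.9 and 27.5 CPM against 2.06, 2.503 and 1.66 CPM. Their log2 fold changes were 2.25 ± 0.52 for Unc13d, 1.95 ± 0.45 for Elfn1, 1.77 ± 0.40 for Tbc1d30 and 2.79 ± 0.64 for H2-M5, each with an adjusted p of 0.302 by edgeR.

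Other genes with this shape passed when library A was left out. The genes that then passed with the smallest adjusted p were Eepd1 (5.18e-04), Slc16a5, Slc35g1 and Dgat2 (0.00223 each) and Elfn1 (0.00413), all by edgeR's test. Dgat2, which makes triglycerides, was at 8.17, 31.3 and 31.2 CPM against 8.72, 9.27 and 6.53 CPM, with A among the controls. Eepd1 was at 21.6, 39.2 and 41.1 CPM against 21.2, 21.1 and 21.1 CPM, and Slc35g1 at 19.7, 44.9 and 64.9 CPM against 15.7, 19.2 and 17.8 CPM. The mitochondrial superoxide dismutase Sod2 was at 96.9, 186 and 230 CPM against 90.0, 107 and 77.2 CPM. Of the 68 genes, library A was within the control range for 24, above all controls for 39 and below all for 5. These genes were chosen after their values were seen, and a call that rests on leaving 1 library out is not a call on the group. Without library C a single gene passed, the amino acid transporter Slc38a1, at 66.6, 91.1 and 178 CPM against 170, 191 and 193 CPM.

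The F2 differences were set beside those between F1 females exposed to dose 1 and F1 controls, a comparison that shares no library with the F2 one. In F1, 0 of 17168 genes passed (0%), with a smallest adjusted p of 0.247 by edgeR. At an unadjusted p under 0.05, 474 genes were higher (2.76%) and 430 were lower (2.5%). Of 857 genes higher in F2 at that threshold and tested in both, 176 were also higher in F1, which is 20.5% of the F2 list and 37.4% of the F1 list of 470, whereas 12 were lower in F1 (1.4%). Over all genes tested in both, 2.76% were higher in F1. Of 711 genes lower in F2, 40 were also lower in F1, 5.63% of the F2 list and 9.57% of the F1 list, and 6 were higher. The overlap was therefore mostly among the higher genes, and it was counted, not tested. Not all genes that passed without library A were part of it: Dgat2 was at 14.6, 13.2 and 11.8 CPM in F1 dose 1 against 10.3, 7.03 and 18.98 CPM, a log2 fold change of 0.12 ± 0.37, and that of Eepd1 was 0.38 ± 0.25. The values in F1 that follow are of genes chosen for being higher there, so they are a description.

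Unc13d was at 153, 131 and 79.1 CPM in F1 dose 1 ovaries and at 40.8, 32.0 and 20.1 CPM in F1 controls, a log2 fold change of 1.97 ± 0.44. Elfn1 was at 109, 31.3 and 51.3 CPM against 7.94, 10.3 and 16.5 CPM, a log2 fold change of 2.46 ± 0.45. Mfsd4a was at 134, 106 and 67.2 CPM in F1 dose 1 against 16.5, 19.2 and 9.09 CPM, and at 15.2, 68.9 and 235 CPM in F2 from dose 1 mothers against 7.56, 26.2 and 11.3 CPM. In F1 all 3 dose 1 libraries of these genes were above all 3 controls, while in F2 library A overlapped the controls for Elfn1 and Mfsd4a. Oxtr, the oxytocin receptor, was at 331, 270 and 141 CPM against 59.9, 78.7 and 54.0 CPM in F1, and at 159, 200 and 277 CPM against 72.8, 179 and 74.4 CPM in F2. Parvb, a focal adhesion protein, was at 363, 277 and 168 CPM against 61.5, 64.8 and 38.5 CPM in F1, and at 144, 297 and 379 CPM against 39.6, 172 and 37.4 CPM in F2. For these last 2 genes F2 control library B reached the level of dose 1 library A. F1 females of dose 2 were also above all F1 controls for some of these genes. There Parvb was at 186.5, 151 and 142 CPM, Oxtr at 138, 168 and 150.5 CPM and Elfn1 at 24.6, 23.7 and 28.1 CPM. Unc13d, at 53.0, 40.1 and 116 CPM there, overlapped the F1 controls. In F2, library A was the lowest of the dose 1 libraries for 161 of the 176 genes, and libraries B and C were both above all controls for 172. Library A was above all controls for 91, within their range for 76 and below it for 9. The 176 were chosen as higher in these same F2 libraries, so the place of B and C follows largely from that choice. The same counts are not given for the other genes higher in F2, so this shape is not shown to be particular to the 176.

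**Figure D3:**
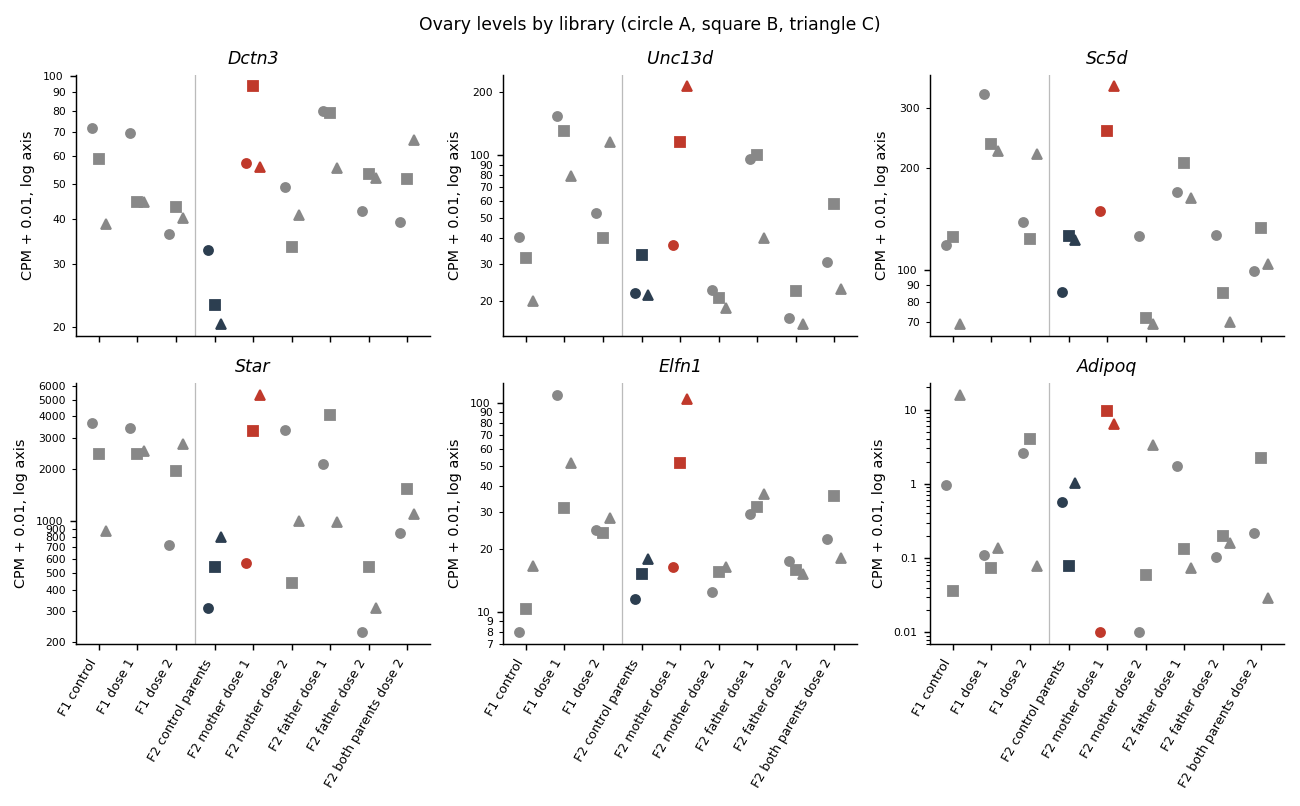
Ovary levels in CPM + 0.01 (log axes) of 6 genes in all 27 libraries, 3 per group; the vertical line separates F1 from F2, blue marks F2 control parents, red marks F2 from dose 1 mothers, and shapes are libraries A, B and C. Dctn3 is lowest in F2 control libraries. Unc13d, Sc5d and Elfn1 are high in F1 dose 1 and in libraries B and C of F2 from dose 1 mothers. Unc13d and Sc5d are also high in some libraries of other groups, such as F1 dose 2 library C (116 and 219 CPM). In library B of F2 from dose 1 fathers they are at 99.9 and 206 CPM.

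No gene passed a test of the difference between the dose 1 effects in F2 and F1. Over 17754 genes in a joint fit, 0 passed (0%), with a smallest adjusted p of 0.816 by edgeR and 866 genes at an unadjusted p under 0.05, whereas DESeq2 called 2. The F2 effect minus the F1 effect was 0.28 ± 0.69 (log2, SE) for Unc13d, -0.52 ± 0.64 for Elfn1 and -0.16 ± 0.44 for Sc5d, with intervals of 2 standard errors from -1.11 to 1.67, -1.80 to 0.76 and -1.04 to 0.71. For the chromosome 4 stretch it was 1.53 ± 0.36 for Dctn3 and 1.45 ± 0.33 for Galt, each with an adjusted p of 0.816 by edgeR. Their intervals ran from 0.80 to 2.25 and from 0.78 to 2.11. Dctn3 and Galt were chosen for a small p in F2, whereas Unc13d, Elfn1 and Sc5d were among the genes higher in both generations. Where these intervals lie relative to 0 follows largely from that choice, so they are a description only.

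Some fat cell markers, but not all, were high in dose 1 libraries B and C. Adiponectin (Adipoq), secreted by fat cells, was at 0, 9.62 and 6.46 CPM in ovaries from dose 1 mothers and at 0.569, 0.0695 and 1.02 CPM in those from control parents. Car3, a carbonic anhydrase abundant in fat, was at 6.61, 69.3 and 50.8 CPM against 8.06, 2.64 and 6.35 CPM, and passed edgeR's test without library A. Plin1, another marker of the list, went the other way, at 33.7, 32.2 and 31.2 CPM against 45.3, 55.8 and 39.5 CPM. Of 13 tested adipocyte markers, 10 had a positive and 3 a negative log2 fold change. None passed, and 3 were higher and 1 lower at an unadjusted p under 0.05. The median log2 CPM difference was 1.59, against -0.002 over all genes. Their summed level ran from 361 to 487 CPM in the dose 1 group and from 379 to 478 CPM in the control group, because Aoc3, Lpl, Pparg and Plin1, which the ovary also expresses, made up most of it. In F1, Adipoq was at 0.101, 0.064 and 0.127 CPM in dose 1 ovaries and at 0.971, 0.0261 and 15.8 CPM in controls, so it did not go with Unc13d there. The part of fat cells in the F2 differences was not tested. In these bulk samples, more cells of a type and more RNA per cell cannot be told apart.

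Most cholesterol genes had higher levels in ovaries from dose 1 mothers, above all in library C, and none passed. Of the 25 genes for cholesterol synthesis and uptake, all tested, 0 passed. At an unadjusted p under 0.05, 10 were higher and 0 lower, beside 5% and 4.2% of all genes. The median log2 CPM difference was 0.59. It ranged from 0.21 without dose 1 library C to 0.95 without dose 1 library A. The enzymes Hsd17b7, Dhcr7, Tm7sf2, Sc5d, Lss, Nsdhl, Mvd, Pmvk and Fdps and the lipoprotein receptor Scarb1 made up the 10. The summed level of the 25 genes was at 3871, 5943 and 11770 CPM against 2729, 4762 and 3723 CPM. In F1, scaled separately, it was at 9261, 7171 and 3469 CPM in controls, so it varied widely without exposure. F1 dose 1 ovaries overlapped them, at 9251, 7907 and 6372 CPM.

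Sc5d, an oxidase of the late synthesis steps, was at 149, 257 and 348 CPM against 85.9, 125 and 122 CPM, a log2 fold change of 1.18 ± 0.31, and passed edgeR's test without library A (adjusted p 0.0469). Hsd17b7, which acts in cholesterol synthesis and also reduces oestrone to oestradiol, was at 374, 493 and 2387 CPM against 87.9, 257 and 86.8 CPM. Its groups did not overlap, but library C was far above B, and its log2 fold change of 2.92 ± 1.04 had an adjusted p of 0.400 by edgeR. Dhcr7 was at 244, 486 and 753 CPM against 98.6, 262 and 177 CPM, with A below control B.

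**Figure D4:**
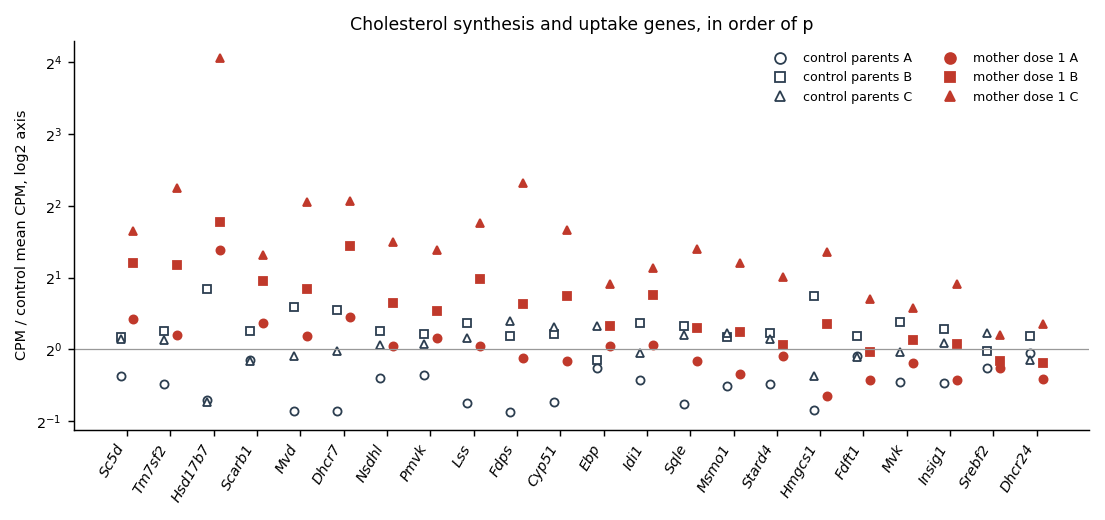
Level of 22 of the 25 cholesterol synthesis and uptake genes in each ovary library, as CPM over the control mean of the same gene on a log2 axis, in order of p; open symbols are control parents, filled symbols dose 1 mothers, shapes the libraries. Dose 1 library C (filled triangles) is the highest of the 6 for every gene shown but Srebf2, and Hsd17b7 shows the widest gap.

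Cholesterol genes are known targets of SREBP transcription factors, which bind sterol response elements together with the CCAAT-binding factor NF-Y. Promoters are shown for Sc5d and Hsd17b7, the genes with the smallest adjusted p and the largest change here, and for Hmgcs1, the single gene of the 16 listed by RefSeq with the letters TCACNCCAC on either strand. Each is the 250 bases before the start (GRCm38.p6), with CCAAT or TCACNCCAC, on either strand, in capitals: Sc5d at chr9:42264301-42264550 (minus strand), Hsd17b7 at chr1:169969206-169969455 (minus strand) and Hmgcs1 at chr13:119690101-119690350 (plus strand).
Sc5d: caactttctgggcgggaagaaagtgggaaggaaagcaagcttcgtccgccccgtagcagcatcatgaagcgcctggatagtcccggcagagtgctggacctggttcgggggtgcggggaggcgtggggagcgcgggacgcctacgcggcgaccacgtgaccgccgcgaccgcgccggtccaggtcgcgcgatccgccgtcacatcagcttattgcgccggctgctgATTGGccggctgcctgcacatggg
Hsd17b7: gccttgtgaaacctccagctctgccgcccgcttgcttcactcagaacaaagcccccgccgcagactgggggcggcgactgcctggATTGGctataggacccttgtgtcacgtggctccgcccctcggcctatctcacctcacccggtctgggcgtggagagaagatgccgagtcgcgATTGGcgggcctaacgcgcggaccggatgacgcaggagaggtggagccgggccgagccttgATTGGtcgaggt
Hmgcs1: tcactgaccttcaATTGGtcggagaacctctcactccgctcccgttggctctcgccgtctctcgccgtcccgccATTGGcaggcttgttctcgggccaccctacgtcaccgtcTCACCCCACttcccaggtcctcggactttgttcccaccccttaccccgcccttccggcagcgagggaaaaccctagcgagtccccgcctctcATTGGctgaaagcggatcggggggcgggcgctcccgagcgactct
All 16 cholesterol genes with a promoter in the table held a CCAAT box in at least 1 of their 19 promoters, beside 33.9% of all promoters, and TCACNCCAC occurred in 1.05% of all. Genes with several promoters had more chances to match. Hmgcs1, with both motifs, was at 349, 701 and 1398 CPM against 304, 912 and 423 CPM, with control B above dose 1 library B.

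Luteal genes varied with the library. Star, which brings cholesterol into mitochondria for steroid synthesis, was at 573, 3306 and 5332 CPM in ovaries from dose 1 mothers and at 312, 537 and 799 CPM in those from control parents. Libraries B and C were several-fold above all controls and A was inside their range, with a log2 fold change of 2.48 ± 0.81 and an adjusted p of 0.373 by edgeR. In other groups Star went with Unc13d in some libraries and not in others. In F2 from dose 1 fathers Star was at 2131, 4067 and 987 CPM, with library B highest and C lowest for both genes. In F2 from dose 2 mothers library A had Star at 3353 CPM with Unc13d at 22.6 CPM. In F1 controls Star was at 3654, 2426 and 870 CPM, in the same order of libraries as Unc13d, and at dose 1 it was at 3436, 2420 and 2536 CPM. Of 14 tested corpus luteum genes 0 passed, while Star, Scarb1, Prlr and Vegfa were higher at an unadjusted p under 0.05 and none was lower. The list's median log2 CPM difference was 0.37. Cyp11a1, which makes pregnenolone from cholesterol, was at 4943, 4868 and 9065 CPM against 6340, 6480 and 6153 CPM, and its log2 fold change was -0.01.

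Most genes of growing follicles had lower levels, and none passed. Of 24 granulosa cell genes, 0 passed, and 2 were higher and 4 lower at an unadjusted p under 0.05. A negative log2 fold change was seen in 19 of 24, beside 8898 of all 17454 genes. The median log2 CPM difference was -0.18, and it stayed between -0.19 and -0.16 whichever of the 6 libraries was left out. Cyp19a1, the aromatase that makes oestrogens, was at 65.9, 20.4 and 49.8 CPM against 254, 96.5 and 102 CPM. All 3 dose 1 libraries were below all controls, with a log2 fold change of -1.73 ± 0.68 and an adjusted p of 0.456 by edgeR. Inhba, the activin and inhibin βA subunit, was at 671, 454 and 501 CPM against 1501, 812 and 823 CPM, a log2 fold change of -0.95 ± 0.33. Gata4, a granulosa transcription factor, was at 250.3, 275 and 247 CPM against 387, 365 and 304 CPM, and the follicle-stimulating hormone receptor Fshr at 37.4, 47.0 and 30.9 CPM against 54.8, 53.9 and 45.4 CPM.

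The granulosa genes that were higher were Esr2, oestrogen receptor β, at 143, 174 and 122 CPM against 114, 93.1 and 86.7 CPM, and Nr5a2, a nuclear receptor needed for ovulation and luteal function, at 368, 487 and 549 CPM against 352, 301 and 338 CPM. Neither pair of groups overlapped. The theca peptide Insl3 was at 2.97, 1.42 and 2.58 CPM against 3.81, 9.53 and 6.30 CPM. The theca enzyme Cyp17a1 was at 501, 235 and 601 CPM against 1555, 944 and 664 CPM, with library C just below the lowest control. Of 18 theca and steroid synthesis genes 0 passed, 3 were higher and 2 lower at an unadjusted p under 0.05.

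Most oocyte genes had slightly lower levels. Of 32 genes, 28 had a negative log2 fold change, beside 8898 of all 17454 genes. At an unadjusted p under 0.05, 6 were lower and 0 higher, and 0 passed. The median log2 CPM difference was -0.18, with a range of -0.33 to -0.07 when 1 library was left out. Kit, the stem cell factor receptor, was at 64.9, 71.9 and 67.9 CPM against 109, 116 and 90.3 CPM. Figla, an oocyte transcription factor, was at 1.03, 1.30 and 0.594 CPM against 1.53, 2.04 and 1.51 CPM. Gdf9 overlapped between the groups, at 73.7, 108.5 and 83.2 CPM against 100, 102 and 84.4 CPM.

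Ovulation genes differed through a single control library. Of 18 tested periovulatory genes 8 were lower and 0 higher at an unadjusted p under 0.05, 0 passed, and the median log2 CPM difference was -0.67, but -0.10 without control library C. Ereg, an epidermal growth factor family ligand of the ovulatory response, was at 3.14, 1.46 and 2.94 CPM against 4.13, 2.27 and 59.9 CPM. Ptgs2 was at 1.34, 0.186 and 0.955 CPM against 1.10, 0.301 and 21.9 CPM, and Adamts1, a protease of cumulus expansion, at 69.4, 61.3 and 78.2 CPM against 79.9, 69.4 and 415 CPM. Control libraries A and B were close to the dose 1 libraries for all 3 genes. In F1, library C was high as well, both in controls and at dose 1. There Ereg was at 40.7 and 39.5 CPM, Ptgs2 at 17.8 and 14.0 CPM and Adamts1 at 295 and 279 CPM. Of 27 prostaglandin enzymes, receptors and transporters 0 passed, 3 were higher and 4 lower at that threshold. The thromboxane receptor Tbxa2r was at 7.86, 24.5 and 35.0 CPM against 4.11, 11.2 and 5.86 CPM and passed edgeR's test without library A (adjusted p 0.0469).

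Oestrogen receptors and oestrogen-responsive genes showed no common direction. Of 19, 2 were higher and 2 lower at an unadjusted p under 0.05, 0 passed, and the median log2 CPM difference was -0.07. Cited1, a transcriptional co-activator, was at 8.15, 36.4 and 71.7 CPM against 6.30, 8.21 and 7.39 CPM, with the order of libraries seen for Unc13d. Of 30 tested imprinted genes 0 passed, 2 were higher and 3 lower, with a median of 0.02. The growth factor Igf2 was at 15.8, 21.9 and 8.24 CPM against 7.76, 9.64 and 7.63 CPM, and the maternally expressed RNA Rian at 85.0, 102 and 64.8 CPM against 107, 140 and 160 CPM. Of 15 DNA methylation and demethylation genes 1 was higher and 2 lower, with a median of -0.03, and of 25 proliferation genes 0 differed at that threshold.

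Vessel and muscle markers leaned in opposite directions. All 15 endothelial markers had a positive log2 fold change, 7 were higher and 0 lower at an unadjusted p under 0.05, 0 passed, and the median log2 CPM difference was 0.33, or 0.09 without dose 1 library C. The endothelial receptor Tie1 was at 47.7, 59.4 and 87.0 CPM against 41.1, 47.4 and 42.5 CPM, and the endothelial cadherin Cdh5 at 120, 129 and 178 CPM against 91.9, 111 and 116 CPM. All 13 smooth muscle markers had a negative log2 fold change, 4 were lower and 0 higher, 0 passed, and the median was -0.28, between -0.34 and -0.23 with 1 library left out. Smooth muscle myosin Myh11 was at 337, 361 and 389 CPM against 413, 445 and 459 CPM, without overlap.

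Interferon and antigen presentation genes stood high in control library A alone. Of 22 interferon-stimulated genes 21 had a negative log2 fold change, but 0 passed and 0 differed at an unadjusted p under 0.05. The median log2 CPM difference was -0.44, and -0.01 without control A. Zbp1, a nucleic acid sensor, was at 5.16, 1.79 and 1.42 CPM against 29.1, 2.27 and 2.996 CPM. The summed macrophage markers were at 778, 718 and 500 CPM against 1241, 500 and 507 CPM, and their median moved from -0.19 to 0.23 without control A. The summed MHC class II and antigen presentation genes were at 1846, 1209 and 1448 CPM against 3966, 1635 and 1056 CPM, with the same change of sign.

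**Figure D5:**
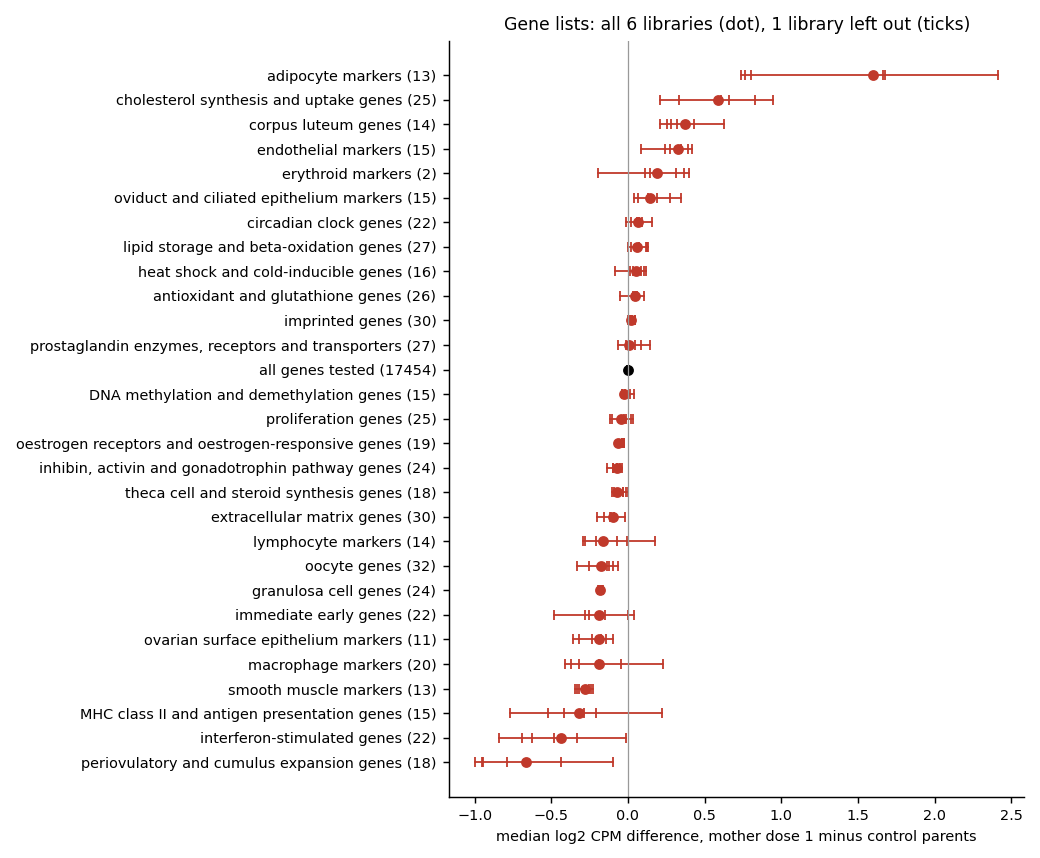
Median log2 CPM difference, dose 1 mothers minus control parents, over the tested members of each gene list (number in parentheses) in ovary; the dot uses all 6 libraries and the ticks leave out 1 library each. Adipocyte, cholesterol, luteal and endothelial lists lie above 0 in every setting, granulosa, oocyte and smooth muscle lists below 0, and the macrophage, lymphocyte and MHC lists change sign.

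Set directly against the other F2 crosses, ovaries from dose 1 mothers differed in 0 genes from those of dose 1 fathers and in 0 from those of dose 2 mothers (0% of 17454 each by edgeR), with 861 and 1487 genes at an unadjusted p under 0.05. DESeq2 called 4 and 91. Dctn3 differed from dose 1 fathers by -0.05 ± 0.25 (log2, SE), with an interval of 2 standard errors from -0.54 to 0.44. Against dose 2 mothers Dctn3 differed by 0.74 ± 0.25, with an adjusted p of 0.430 by edgeR. Unc13d was at 95.3, 99.9 and 40.0 CPM in ovaries from dose 1 fathers and at 22.6, 20.7 and 18.6 CPM from dose 2 mothers, so dose 1 mothers were 0.63 ± 0.50 above the former and 2.56 ± 0.53 above the latter, the second with an adjusted p of 0.364. Dctn3 was chosen for a small p in these same dose 1 libraries, and Unc13d with its values in view. The size of their differences follows partly from that choice, so these values are a description only. Without dose 1 library A, 62 genes passed against dose 2 mothers, 59 of them higher.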

How the data were processed

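The authors deposited raw counts per gene for ovary and testis. Per the submitters' processing notes, reads were handled with TopHat2 2.1.1 and featureCounts 2.0.3 on the build mm39; annotation and strand setting: not given in the sources used here. Libraries were made with a stranded mRNA kit, per the labels' protocols. Column codes were matched to sample titles, reading crosses as male by female as in the titles; the headers do not state that order. Of 26264 entries, 133 have no gene ID and held 0.0648% to 0.0752% of counts in the 6 libraries; all columns were used.

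Genes were kept by filterByExpr (minimum count 10), scaled by TMM and tested with edgeR 4.0.16 (robust quasi-likelihood, R 4.3.3) in the 18 F2 ovary libraries, with Benjamini-Hochberg adjustment over all genes; F1 ovary, testis and joint ovary fits were made alike. Log2 CPM used a prior count of 2. The scripts were tested on simulated data. Named genes are the 15 with the smallest p, a mean over the 6 libraries of 1 CPM or more and a non-predicted symbol, since fewer than 10 passed (13 of them are described), up to 3 members of each of 28 lists, and genes stated as chosen after their values were seen. The members and lists were chosen with earlier results of these data known. Some genes and their results are not reported here. Gene order and promoters came from RefSeq (GRCm38.p6), which matched 26083 of 26131 IDs. Alternatives were DESeq2 1.42.0, RLE scaling, no filter, a replicate block, each library left out, and fits with fewer or more libraries.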

Additional observations from a re-analysis of the deposited data

Results flagged for a closer look

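In 6 of the genes named above, the dose 1 libraries took opposite sides of the F2 controls by tissue. All 3 lay on one side in ovary and on the other in testis. The difference between tissues was not tested. Apof (ovary log2 fold change 2.90), Scarb1 (0.93), Lims2 (0.88) and the endothelial cadherin Cdh5 (0.42) were higher in ovary and lower in testis. Cntfr (-0.49) and Figla (-0.79) were lower in ovary and higher in testis. Lims2 passed edgeR's test in testis, at a log2 fold change of -0.51 with an adjusted p of 0.0465. The genes looked at were partly chosen after their values were seen, and their number is not given, so the 6 are a description only. A lack of overlap in ovary was common over all genes, as given above. Opposite directions were also counted for genes tested in both tissues, at an unadjusted p under 0.05. Of 810 genes higher in ovary, 106 were lower in testis (13.09%), beside 11.04% of all genes. Of 663 genes lower in ovary, 46 were higher in testis (6.938%), beside 6.36% of all genes.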

How the results depend on the processing

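The count of genes passing between dose 1 mothers and control parents was 0 with RLE scaling, without the low-count filter, with the replicate block and with only the 6 libraries. It was 126 by DESeq2 and 2 with all 27 ovary libraries, and it ranged from 0 to 68 when 1 library was left out. Against dose 1 fathers DESeq2 called 4 genes, and leaving out 1 library gave 0 to 1. Against dose 2 mothers DESeq2 called 91 and leave-one-out counts ran from 0 to 62. For F1 dose 1 DESeq2 called 78, and for the F2 minus F1 difference 2, with 0 to 1 when 1 library was left out. In testis the 157 genes became 650 by DESeq2 and 27 to 785 with 1 library left out. The letters A, B and C were not treated as pairs in the main fit, because the labels do not say that they mark pairs. Deviations of same-letter libraries did correlate, at 0.197, 0.263 and 0.0968. Each library correlated best with its own letter, which is a hint of pairing from the data only. With the replicate block 0 genes passed here and 138 in testis. With 3 libraries a group, the cause of the spread between replicates was not tested.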
